A study of Mus musculus with 6 samples.

Results

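Variants in a group of human genes are linked to inherited forms of amyotrophic lateral sclerosis (ALS), a disease in which motor neurons are lost, and the mouse counterparts of 9 of them were followed here: Sod1, Tardbp, Vcp, Optn, Tbk1, Atxn2, Matr3, Pfn1 and Sqstm1. They were taken by gene symbol from a table of 28162 genes, and all 9 were found and passed the filter on low values (at least 10 normalized read counts in at least 3 libraries, which 17480 genes passed). The tissue was ventral lumbar cord of SOD1G93A mice, which carry a mutant human superoxide dismutase 1 transgene. Every animal of both groups carried that transgene and had received an adeno-associated virus (AAV) intrathecally on postnatal day 74, coding for green fluorescent protein in the controls (AAV-GFP, n = 3) or for the secreted neuron-derived neurotrophic factor in the others (AAV-NDNF, n = 3); tissue was taken on day 104. No mice without the transgene and no untreated SOD1G93A mice were analysed here, so the comparison is between treatments within the disease model. Neither the promoter of the vectors nor the sex of the mice is stated in the sources used here.

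The 9 genes fall into a few functional groups. Sqstm1 (p62) and Optn (optineurin) encode receptors that bring ubiquitin-tagged cargo to the autophagosome, Tbk1 encodes a kinase that phosphorylates both of them and also drives interferon signalling, and Vcp encodes a hexameric ATPase that extracts ubiquitinated proteins from membranes and complexes. Tardbp encodes TDP-43, the RNA-binding protein that leaves the nucleus and aggregates in most ALS, while Matr3 (matrin 3) and Atxn2 (ataxin 2) encode RNA-binding proteins of the nuclear matrix and of stress granules. Pfn1 (profilin 1) delivers actin monomers to growing filaments, and Sod1 is the copper and zinc enzyme that removes superoxide. These proteins are regulated at several levels, of which transcript abundance is one.

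The label of the model refers to residue 93 of the human protein, counted without the start methionine, at which the transgene has alanine for glycine. The mouse gene has a glycine codon at the corresponding codon, number 94 with the start codon counted, in exon 4 (mm10, chr16:90225170-90225202, plus strand). The coding stretch is shown because it holds the codon that names the model, with the glycine codon in capitals (GENCODE M21 transcript sequence).
Sod1: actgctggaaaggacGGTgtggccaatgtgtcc

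Reads assigned to genes came to between 15335789 and 20060987 per library, and each of the 9 genes was covered by 498 to 8973 reads in every library. Values below are normalized read counts (reads divided by the authors' size factor of the library), ± is the SD over n = 3, and log2 fold changes are those of AAV-NDNF over AAV-GFP, computed on log2(value + 1) and given with the standard error (SE) or 95% interval of the limma fit over all genes. The delivered gene, Ndnf, averaged 152.5 ± 22.2 in the AAV-GFP group and 4346 ± 3304 in the AAV-NDNF group, with AAV-NDNF replicate 3 the lowest of the treated libraries at 673.7. Its log2 fold change was 4.27, with each treated library above each control. Even so it did not pass in limma (adjusted p = 0.530), whereas DESeq2 called it (adjusted p = 9.0e-05). Without AAV-NDNF replicate 3 its log2 fold change was 5.33 and limma called it (adjusted p = 9.6e-09). Without any other single library limma did not call Ndnf. The widest gap on the first principal component was between AAV-GFP replicate 2 (40.3) and AAV-NDNF replicate 3 (−52.0), and both are left out as alternatives below. The tissue had the markers of spinal cord: in controls Mbp of oligodendrocytes was at 328212, Gfap of astrocytes at 108506, Snap25 of neurons at 35907, and the motor neuron genes Chat and Mnx1 at 739.1 and 55.8. The labels describe the libraries as biological replicates.

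None of the 9 genes passed a test of the difference between the groups, although the libraries of 2 of them, Tbk1 and Vcp, did not overlap. With limma, 0 of 9 had a Benjamini-Hochberg adjusted p under 0.05, where 0% of all 17480 genes did, and 0 of 9 had an unadjusted p under 0.05, where 4.68% of all genes did. On recovered reads edgeR gave 0 of 9 by either count, where it called 0% of all genes after adjustment and 4.6% before, and DESeq2 gave 0 of 9 as well, where it called 0.263% and 2.94%. The fold changes ran from −0.064 to 0.24 with 7 above 0 and 2 below. Their median was 0.039, where that of all tested genes was 0.00083, and the median size regardless of sign was 0.045, where that of all tested genes was 0.13. The tested genes were not matched to the 9 for read count. The filter admits genes at 10 normalized counts, whereas the 9 had at least 498 reads in every library. All 9 intervals held 0, and 8 of 9 lay inside a 1.5-fold change in either direction. The share of all tested genes with such intervals is not given here. These intervals belong to the limma fit of all 6 libraries, which treats the libraries as independent. The fold changes of several of the 9 moved when single libraries were left out, so the intervals are no firm bound on a missed effect. In the authors' deposited table all 9 have an adjusted p of 0.9999.

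**Figure D1:**
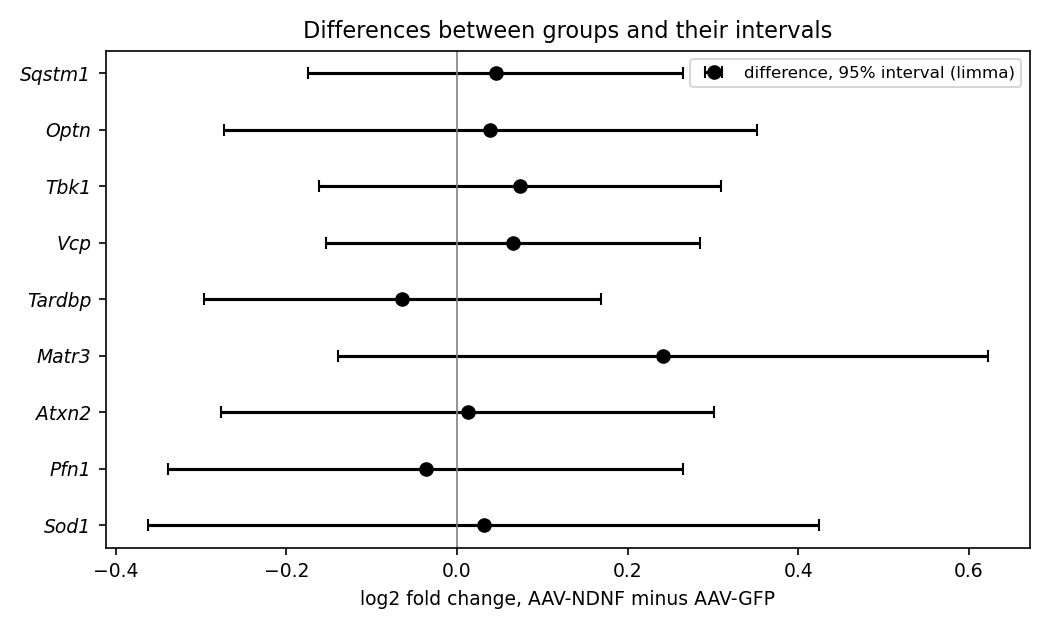
Points are log2 fold changes (x axis, AAV-NDNF minus AAV-GFP, n = 3 each) of the 9 genes (y axis) and bars their 95% intervals from limma. Every interval crosses 0, and only that of Matr3 reaches past a 1.5-fold change.

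The autophagy receptors Sqstm1 and Optn overlapped between the groups, and their kinase Tbk1 was slightly higher in each treated library without passing the test. Sqstm1 was 7799.8, 7609.9 and 7522 in AAV-GFP libraries 1 to 3 and 7547, 7852 and 8278 in AAV-NDNF libraries 1 to 3. The groups overlapped, and the 6 libraries spanned only 1.10-fold. The fold change of Sqstm1 was 0.045 (95% interval −0.17 to 0.26), which corresponds to a difference of −11.4% to 20.1%. p62 is both an autophagy substrate and a stress-induced gene, and its transcript was the highest of the 9 genes in read count.

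Optn was 632.1, 725.1 and 531.9 in control libraries and 704.8, 586.8 and 639.7 in treated ones. The treated libraries lay wholly within the control range, and the fold change was 0.039 (−0.27 to 0.35). Tbk1 was 708.8, 708.5 and 694.3 against 734.2, 738.8 and 750.3. Each AAV-NDNF library was thus above each control, by a mean of 1.05-fold (log2 fold change 0.074, −0.16 to 0.31, limma adjusted p = 0.997, exact two-sided permutation p = 0.1, the smallest that 3 against 3 libraries allow). The residual SD of Tbk1 between libraries of a group was 0.017 on the log2 scale, whereas counting error alone would give 0.054 at its 650 to 873 reads. The counting error of the difference was 0.044 (SE), so a difference of 0.074 was not detectable above counting error at this depth.

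Vcp showed the same arrangement at a higher level. Control libraries stood at 5930.5, 5939 and 6037 and treated ones at 6041, 6141 and 6573. The groups did not overlap, but the lowest treated library exceeded the highest control by a few counts, and AAV-NDNF replicate 3 stood above the other two. The log2 fold change was 0.066 (−0.15 to 0.29, exact permutation p = 0.1). Vcp and Tbk1 were the 2 of 9 genes whose groups did not overlap, both higher; of all tested genes 9.75% did not overlap in either direction and 4.26% were separate and higher. A related sequence, Vcp-rs, was listed at 17.6 to 21.4 in the AAV-GFP libraries and 5.05 to 13.1 in the AAV-NDNF libraries, a small amount beside the reads of Vcp.

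**Figure D2:**
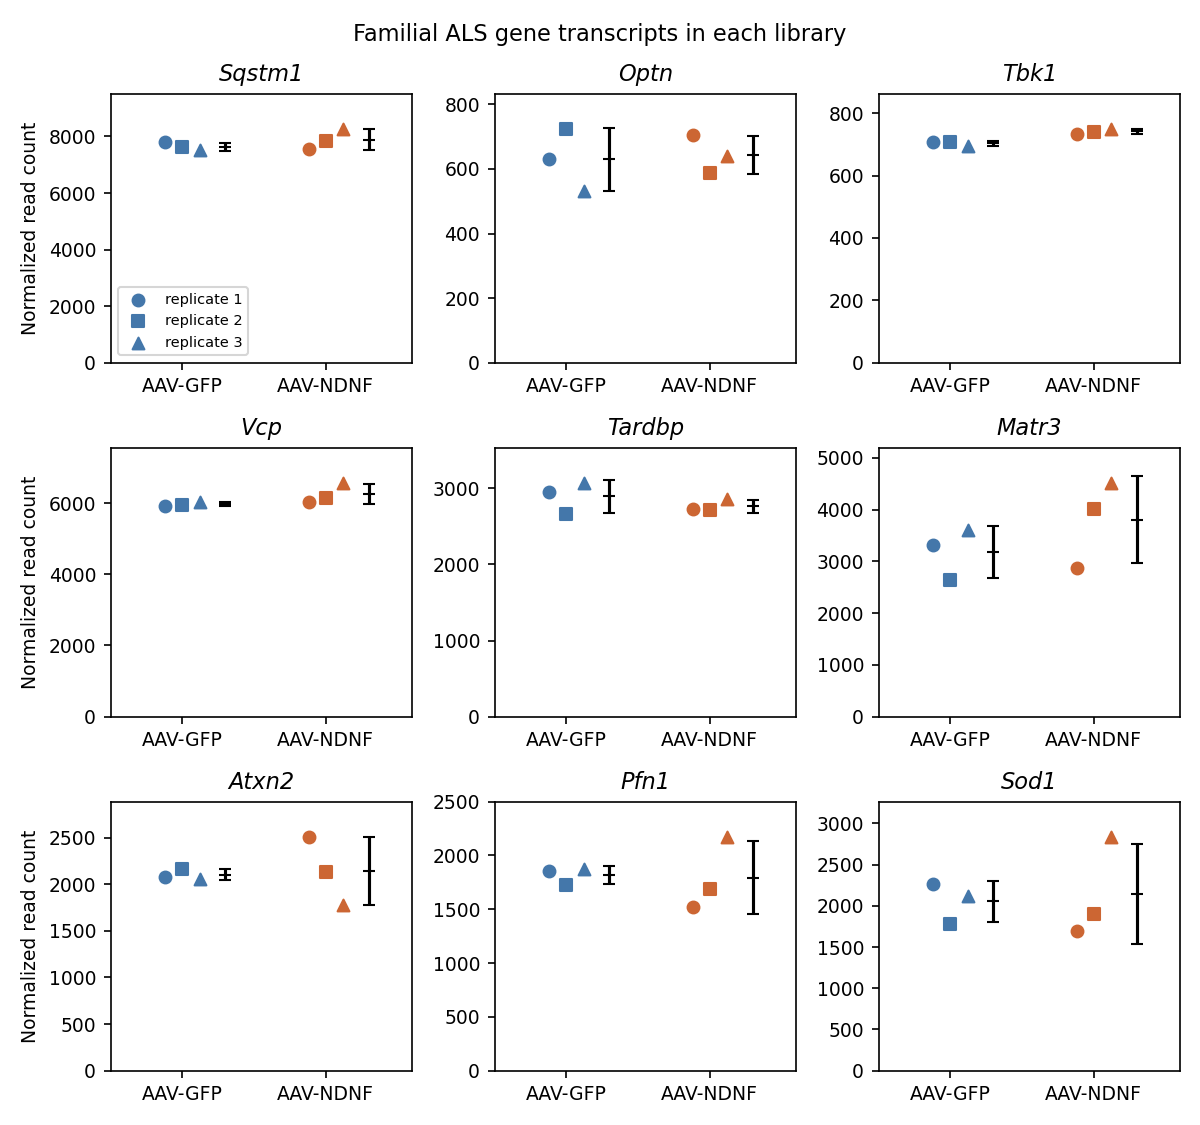
Normalized read counts (y axis, from 0) of the 9 genes in the 3 AAV-GFP (blue) and 3 AAV-NDNF (orange) libraries, marker shape giving the replicate; black bars are group means ± SD. Tbk1 and Vcp separate the groups by small amounts, while Sod1, Matr3, Pfn1 and Atxn2 have a wide AAV-NDNF group between replicates 1 and 3.

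Among the RNA-binding proteins, Tardbp was the steadiest. Its level was 2950.5, 2656 and 3074 under AAV-GFP and 2722, 2709 and 2860.1 under AAV-NDNF, so that the treated libraries lay inside the control range. The fold change was −0.064 (−0.30 to 0.17). TDP-43 is known to repress its own transcript.

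Matr3 had the largest difference of the 9 genes and the smallest p. Controls 1 to 3 were at 3321, 2634 and 3608 and treated libraries at 2873, 4013 and 4521. Both groups had a low library, AAV-GFP replicate 2 and AAV-NDNF replicate 1, and the ranges overlapped. The log2 fold change was 0.24 (SE 0.17, −0.14 to 0.62; limma adjusted p = 0.997). Its size depended on single libraries: it was 0.43 without AAV-NDNF replicate 1 (unadjusted p = 0.011, adjusted p = 0.466), 0.10 without AAV-NDNF replicate 3 and 0.11 without AAV-GFP replicate 2. Without both of the libraries that lay farthest apart it was −0.028. Matr3 (mm10, chromosome 18, 35562138 to 35593835) also overlaps the spans of other gene models on its strand. These overlaps lie at 35562138 to 35587708 and at 35574907 to 35577066. The counts of Matr3 could thus depend on how any shared reads were assigned.

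Atxn2 was 2077, 2166 and 2056 in control libraries and 2509.7, 2127 and 1778 in treated ones. The controls were close together, while AAV-NDNF replicates 1 and 3 were the highest and the lowest of the 6 libraries. The fold change was therefore 0.012 with an interval of −0.28 to 0.30. Pfn1 was 1856, 1726 and 1878 under AAV-GFP and 1518, 1687 and 2175 under AAV-NDNF. Here replicate 1 was the lowest library and replicate 3 the highest, the reverse of Atxn2, and the fold change was −0.037 (−0.34 to 0.27).

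Sod1 was 2268, 1779 and 2120.2 in control libraries and 1693, 1898 and 2839 in treated ones. The highest and the lowest library were both AAV-NDNF, replicates 3 and 1, and the groups overlapped throughout. The fold change was 0.031 (−0.36 to 0.42), and it was −0.19 without AAV-NDNF replicate 3 and −0.070 without AAV-GFP replicate 2. Without both of those libraries it was −0.29 (unadjusted p = 0.0094, adjusted p = 0.202), and Pfn1 was then at −0.22 (unadjusted p = 0.038, adjusted p = 0.373). Reads of the human transgene that align to the mouse gene would be counted here, and whether any were counted, and what share they made up, was not measured. The end of the Sod1 gene also overlaps the Scaf4 gene on the opposite strand (90225680 to 90226329 on chromosome 16). In all, 7 of the 9 genes overlap an annotated gene on the other strand. These are overlaps of whole gene spans, and overlap of exons was not examined. The sources used here do not state whether counting used strand.

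The genes differed among themselves in how much they varied between libraries of a group. The residual SD on the log2 scale was 0.31 for Sod1, 0.29 for Matr3, 0.19 for Pfn1, 0.18 for Optn and 0.18 for Atxn2, where the median of all tested genes was 0.22. It was 0.083 for Tardbp, 0.051 for Sqstm1, 0.047 for Vcp and 0.017 for Tbk1. At most 6.71% of tested genes had an SD as small as any of these 4, and the tested genes were not matched for read count. AAV-NDNF replicate 3 was the highest library for 6 of the 9 genes, namely Sod1, Vcp, Tbk1, Matr3, Pfn1 and Sqstm1.

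Part of this spread moved with transcript length. Sod1 and Pfn1 have the shortest principal coding transcripts of the 9 (641 and 861 bases in GENCODE M21, the longest where there are several), while those of Atxn2 and Matr3 have 4472 and 6262 bases and that of Tardbp 7477. Across the 783 tested genes with a principal transcript under 1000 bases, the median deviation from each gene's own mean was −0.28 in AAV-NDNF replicate 1 and 0.36 in AAV-NDNF replicate 3. Across the 4742 genes of 4000 bases or more it was 0.10 and −0.16 in the same libraries. Sod1 deviated by −0.29 and 0.46 there, Pfn1 by −0.24 and 0.28, and Atxn2 by 0.25 and −0.25, each in the direction of its length class. Matr3, at −0.26 and 0.40, and Tardbp, at −0.053 and 0.018, did not follow the long genes. Reads of mitochondrially encoded genes took 5.54% of the reads in AAV-NDNF replicate 1 and 7.94% in replicate 3; in controls they took 5.28% to 7.26%.

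**Figure D3:**
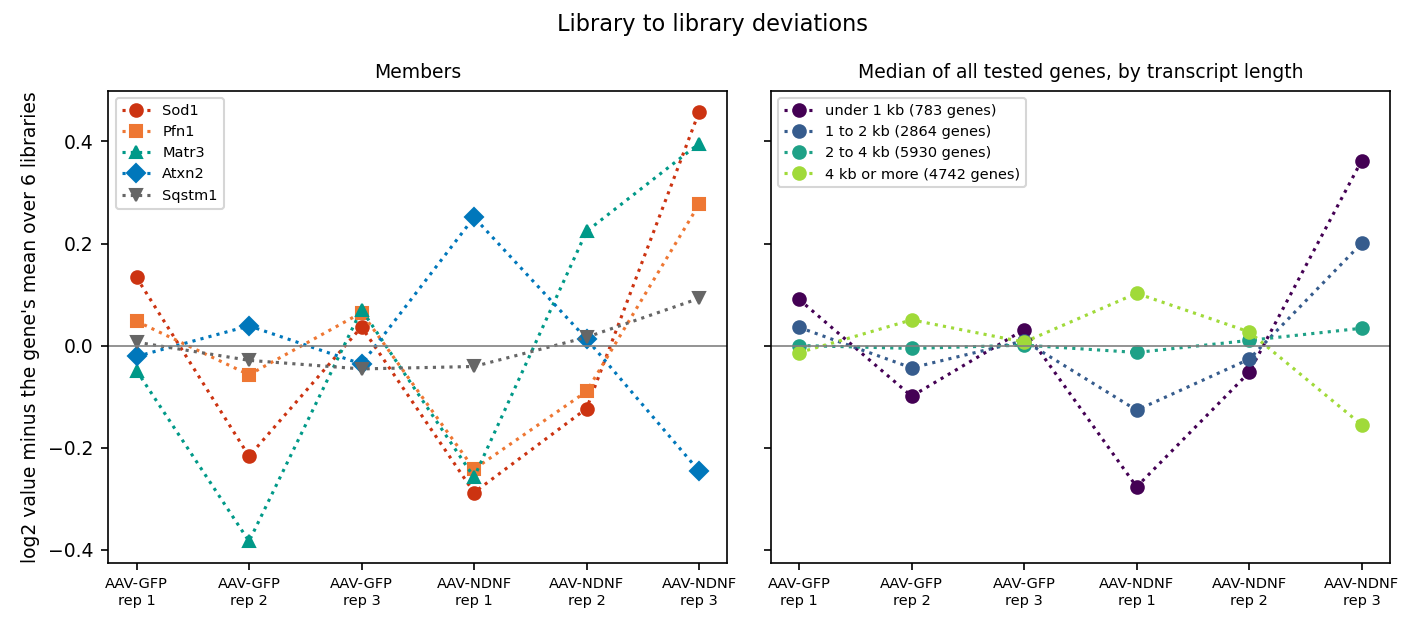
Deviation of the log2 value from each gene's mean over the 6 libraries (y axis) in each library (x axis), for 5 of the 9 genes (left) and as the median over all tested genes in 4 classes of principal transcript length (right); dotted lines only link the points of one gene or class. Sod1 and Pfn1 track the class under 1 kb, with both extremes in AAV-NDNF replicates 1 and 3, and Atxn2 tracks the class of 4 kb or more.

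Removing that trend narrowed some genes and widened others. With the loess trend of deviation on transcript length subtracted in each library (14319 genes, a step chosen after seeing the data), the residual SD fell from 0.31 to 0.078 for Sod1, from 0.19 to 0.035 for Pfn1, from 0.051 to 0.030 for Sqstm1 and from 0.18 to 0.13 for Atxn2. It went from 0.083 to 0.19 for Tardbp and from 0.29 to 0.39 for Matr3. The residual SD also rose, by less, from 0.184 to 0.195 for Optn and from 0.047 to 0.054 for Vcp. For Tbk1 it fell from 0.017 to 0.013. The corrected fold change was 0.039 for Sod1 (−0.15 to 0.23) and −0.038 for Pfn1 (−0.22 to 0.15). For Matr3 it was 0.27 (−0.35 to 0.89) and for Tardbp −0.029 (−0.29 to 0.23). In this limma fit 0 of 9 genes had an unadjusted p under 0.05, where 956 of all 14319 genes did. The cause of the length trend was not tested.

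Other genes had the same pattern as Sod1 over the 6 libraries. Among 6823 tested genes with a mean of at least 500 normalized counts, the smallest root mean square differences from the centred log2 profile of Sod1 were 0.028 for Ndufa11, a subunit of respiratory complex I, 0.031 for Prxl2b and 0.032 for the ribosomal protein gene Rpl8. For Matr3 they were 0.012 for Mllt11, 0.033 for Scoc and 0.038 for mt-Nd2, a mitochondrially encoded complex I subunit. Each of these 6 genes was highest in AAV-NDNF replicate 3, and each had an adjusted p of 0.997 between the groups in limma. These genes were ranked among many, and no test was made of the likeness.

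Levels of different genes can be compared only per length. Per kilobase of merged exons, Sqstm1 was highest at 2315 normalized reads (2241 to 2467 over the 6 libraries), followed by Vcp at 1259.6 (1223 to 1355), Pfn1 at 751.2 (631.2 to 904.5) and Sod1 at 528.8 (426.5 to 715.2). Tardbp at 362.8 and Matr3 at 344.1 came next, then Tbk1 at 184.8, Optn at 169.7 and Atxn2 at 135.1. The ranges of Pfn1 and Sod1, of Sod1 and Matr3, of Tardbp and Matr3, of Tbk1 and Optn, and of Optn and Atxn2 overlapped. The order rests on the length used: the merged exons of Sod1 come to 3970 bases because one annotated transcript retains introns, and per kilobase of its 641-base principal coding transcript Sod1 stood second, at 3275 (2641 to 4429), overlapping Sqstm1 at 3813 (3693 to 4064). On that scale Pfn1 was at 2098 and Vcp at 1843, also with overlapping ranges, and Optn and Tbk1 were lowest at 243.6 and 238.9. Sqstm1 was highest by each length measure.

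**Figure D4:**
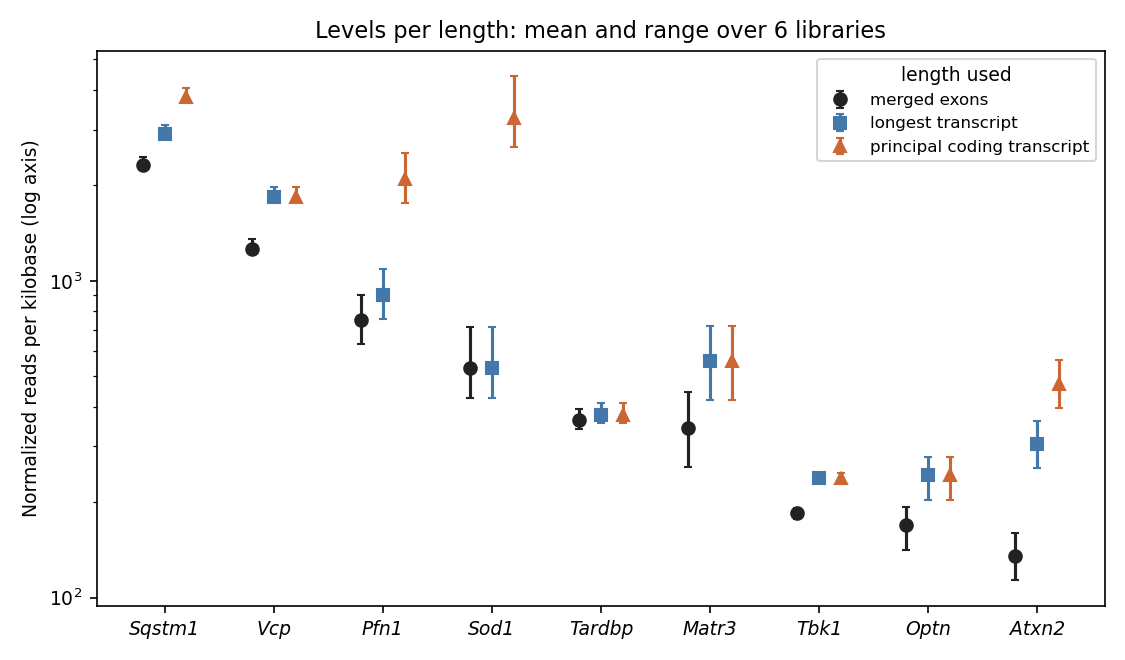
Normalized reads per kilobase (y axis, log scale) for the 9 genes, as mean (points) and range (bars) over the 6 libraries, with 3 measures of gene length. Sqstm1 is highest by each measure, and Sod1 moves from the fourth to the second place when its principal coding transcript is used.

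The promoters of the genes were examined for shared sequence features. RefSeq promoters (GRCm38.p6, from 250 bases before to 50 after the start) were matched for 8 of the 9 genes, all but Matr3. Their GC content ran from 52.7% to 74.3% with a median of 62.7%, where the median of 15862 promoters of tested genes was 60.0%. The ratio of observed to expected CpG dinucleotides had a median of 0.88 (0.60 to 1.05), where that of all was 0.71. The letters TATAAA occurred on either strand in 3 of the 8, those of Sod1, Vcp and Sqstm1, and in 7.51% of all. The antioxidant response element core TGACNNNGC occurred on either strand in the promoters of Sod1 and Vcp and in 14.1% of all. A match of letters is a description of the sequence and not of binding.

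Genes that work with these 9 were read from lists of partners, and no gene of any list passed over all genes in limma. Of 12 tested genes of TBK1 signalling, 8 were lower and 4 higher (median −0.076). In limma 1 of the 12 had an unadjusted p under 0.05, where 4.68% of all tested genes did. That gene was Irf3, the transcription factor that TBK1 activates, at 461 ± 21.5 in the control group and 361.3 ± 58.9 in the treated group (log2 fold change −0.36, limma adjusted p = 0.997). Ticam1, the adaptor of Toll-like receptor 3, was 175.4 ± 15.2 against 134.1 ± 27.1, and Mavs, the adaptor of cytosolic RNA sensors, was 287.6 ± 34.8 against 334.3 ± 15.6. Neither passed an unadjusted p of 0.05.

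In each of the other lists 0 genes had an unadjusted p under 0.05 in limma, where 4.68% of all tested genes did. Of 18 autophagy receptor partners 9 were higher and 9 lower (median 0.0074), the smallest p values being those of Tax1bp1 (log2 fold change 0.16), Rb1cc1 (0.12) and Keap1 (−0.11), the last encoding the sensor that p62 sequesters. Of 23 VCP cofactors 13 were higher (median 0.018), led by Aspscr1 (0.24), Plaa (0.21) and Ubxn2b (−0.18). Of 19 RNA-binding and stress granule genes 10 were higher (median 0.0018), led by Lsm12 (0.16), an ataxin 2 partner, Sfpq (−0.14) and G3bp2 (0.14). Of 18 profilin and actin genes 11 were higher (median 0.025), led by Arpc3 (0.21), Vasp (−0.21) and Cfl2 (0.17). All tested genes had a median of 0.00083, with 8766 of 17480 higher.

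Antioxidant genes related to Sod1 were likewise without a call. Of 17 tested, 10 were higher and 7 lower (median 0.039). Sod2, the mitochondrial manganese superoxide dismutase, was 1976 ± 152 in the control group and 2289 ± 108 in the treated group (0.21, limma adjusted p = 0.997), with each treated library above each control. Prdx6, a peroxiredoxin abundant in astrocytes, was 10474 ± 331 against 8724 ± 1899 (−0.28), and Glrx, a glutaredoxin, was 673.9 ± 50.2 against 795.3 ± 158 (0.22).

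A further list held 24 other genes linked to ALS, of which 15 were higher and 9 lower (median 0.015). Of the 24, 0 had an unadjusted p under 0.05 in limma, where 4.68% of all tested genes did. Those with the smallest p were Nefh, the heavy neurofilament chain, at 20682 ± 2276 against 24171 ± 2081 (0.23), Ang, a secreted ribonuclease, at 45.8 ± 6.36 against 30.2 ± 5.31 (−0.59), and Tuba4a, a neuronal alpha tubulin, at 5644 ± 132 against 6472 ± 682 (0.19). All 3 had a limma adjusted p of 0.997. The groups did not overlap for Ang and Tuba4a. Among the genes named from the other lists the same held for Sod2, Irf3, Ubxn2b and Lsm12. Of all tested genes 9.75% did not overlap, and genes named for the smallest p of a list are more likely to be among them.

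The cell makeup of the samples bears on all of these values, since in bulk tissue fewer cells of a type and less RNA per cell cannot be told apart. All 6 microglial markers were lower after AAV-NDNF, their summed level being 17711 to 19062 in controls and 12697 to 15098 in treated libraries; Csf1r was 4449.7 against 3170.3 (log2 fold change −0.49, limma adjusted p = 0.364). All 6 astrocyte markers were lower as well, with sums of 161841 to 204940.5 against 138398 to 163542, and Gfap had a log2 fold change of −0.36 (limma adjusted p = 0.984). The 5 tested ependymal markers were higher (median 0.58), with sums of 738.1 to 783.8 against 714 to 1148. All 6 neuronal markers were higher, with sums of 106967 to 109801 against 111432 to 130351. Motor neuron markers summed to 6108 to 7419 against 6347 to 7329, and oligodendrocyte markers to 504977 to 699140.5 against 521354 to 563952. The first 2 blood markers, Hba-a1 and Hba-a2, were at 13.4 and 0.68 in controls, and the muscle genes Acta1 and Ckm at 1.90 and 2.02, all near 0 beside the 9 genes. The part of shifts in cell makeup in the values of the 9 genes was not tested.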

How the data were processed

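Polyadenylated RNA was sequenced on a NovaSeq instrument, per the labels' protocols; cutadapt, HISAT2, HTSeq, DESeq2 and mm10 are named in the submitters' processing notes. Per the file headers and values, the authors deposited a normalized signal, gene read counts divided by a size factor per library (100% of values whole multiples of 1 read, tolerance 0.001), with log2 fold changes, Wald score and p-values. limma 3.58.1 (R 4.3.3; trend, robust, two-sided, Benjamini-Hochberg adjustment) was run on log2(value + 1), and edgeR 4.0.16 and DESeq2 1.42.0 on recovered reads. In simulated counts of 17169 genes for AAV-NDNF against AAV-GFP, limma recovered 20%, 84%, 84% and 100% of 50 genes each changed by 0.5, 1, 2 and 4 on the log2 scale, with 8 false among 152 calls. Those counts were drawn independently for each gene, without the length trend of the real libraries or the 2 that lay farthest apart. The recovered shares therefore need not hold for the real data. There limma called 0 genes and gave Ndnf an adjusted p of 0.530. Plots used matplotlib 3.10.9.

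The 9 genes and all lists were chosen with earlier results of these data known. Named besides the 9 were Ndnf, the 3 genes with the smallest p of each partner list, the first 2 markers of a cell type and the 3 genes nearest in pattern to Sod1 and to the gene with the smallest p; Vcp-rs and Scaf4 were named after their values or positions were seen. Coordinates are from GENCODE M21 (mm10), which held 98.1% of symbols. Alternatives covered scaling, filter, pseudocount, tool, replicate block, transcript length and left-out libraries.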

Additional observations from a re-analysis of the deposited data

How the results depend on the processing

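The call was the same for all 9 genes under all 18 alternatives run: 0 of 9 passed an adjusted p of 0.05. Of 162 fold changes recomputed, 152 kept their direction and 10 changed sign, among them those of Sod1 and of Matr3, which had the largest difference of the 9. The changed filters and the replicate block leave a fold change as it is, so they could not change a sign, and the changed pseudocounts hardly moved it. The count of 152 includes these settings. Sod1 changed sign in 4 of its 18 alternatives. Sod1 was −0.16 with limma-voom quality weights. Without single libraries Sod1 ran from −0.19 to 0.18, Optn from −0.077 to 0.15, Atxn2 from −0.11 to 0.14, Matr3 from 0.10 to 0.43 and Pfn1 from −0.18 to 0.075. Without both AAV-GFP replicate 2 and AAV-NDNF replicate 3 Sod1 was −0.29, Matr3 −0.028, Pfn1 −0.22 and Atxn2 0.16. The count of the 9 with an unadjusted p under 0.05 was 0 to 1 without single libraries (1, Matr3, without AAV-NDNF replicate 1). It was 2, Sod1 and Pfn1, without both of those libraries. Of all 17480 tested genes, 1535 had an unadjusted p under 0.05 without AAV-NDNF replicate 1. Without both libraries 2128 of them did.

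Over all genes the adjusted count was 0, against 3 with no filter, 54 with DESeq2, 167 with limma-voom quality weights, 25 with the length correction and 257 without both libraries, and 0 to 43 without single libraries (43 without AAV-GFP replicate 2, 11 without AAV-NDNF replicate 3, 1 without AAV-NDNF replicate 1); the cause was not tested. The unadjusted count of 818 was 1242 with no filter, 2424 with quality weights, 2128 without both libraries and 544 to 1535 without single libraries. The fit with the replicate number as a block called 6 genes and none of the 9. The values showed no sign that the numbers pair the samples: deviations of same-numbered libraries correlated at −0.090, 0.048 and 0.080, and not every library correlated best with its own number. With 3 libraries a group these correlations cannot exclude a pairing. The highest level per kilobase was 17.1 times the lowest, 12.2 times by longest transcript, and 16.4 to 17.9 times without single libraries.

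For 8 of the 9 genes the spread between libraries exceeded counting error, the exception being Tbk1. With 3 libraries a group, an exact permutation test cannot go below p = 0.1.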
